A study of Mus musculus with 8 samples.

Results

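The striatal transcription factor genes Isl1, Ebf1, Foxp1, Zfp503, Ikzf1, Meis2 and Six3 were followed in the cortex of mice at postnatal day 3 (P3). They were chosen by symbol, and 7 of 7 were found among the 48709 genes counted, each under a single Ensembl identifier. There were 4 dcKO_hGFAP-Cre and 4 control samples. The dcKO_hGFAP-Cre mice carried BAF155 fl/fl, BAF170 fl/fl and hGFAP-Cre, whereas the controls, which the labels also call WT, are given in the methods as BAF155 fl/+, BAF170 fl/+ and hGFAP-Cre. Both groups therefore had the Cre transgene and at least 1 floxed copy of each gene, on a C57BL/6J background. BAF155 and BAF170, encoded by Smarcc1 and Smarcc2, are scaffold subunits of the BAF (SWI/SNF) complex, which uses ATP to move nucleosomes. In the hGFAP-Cre line a human GFAP promoter drives Cre recombinase in radial glial progenitors of the dorsal telencephalon (dTel), so cells that enter the cortex from elsewhere need not carry the deletion. The methods name the dissected tissue as dTel.

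Striatal projection neurons arise from progenitors of the lateral ganglionic eminence (LGE) in the ventral telencephalon, whereas cortical projection neurons arise in the dorsal telencephalon. After leaving the cycle, striatal neurons take up either the direct-pathway fate, with dopamine receptor D1, substance P and dynorphin, or the indirect-pathway fate, with dopamine receptor D2 and enkephalin. The transcription factors described here act at different steps of that programme, and several of them are also used by cells outside the striatum, such as Foxp1 in cortical neurons and Ikzf1 in cells of the immune system.

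Total counts per sample ranged from 21126713 to 32110285. The targeted genes were lower in the mutants, Smarcc1 by 0.97 ± 0.08 (SE) and Smarcc2 by 0.77 ± 0.08 on the log2 scale, and neither overlapped between the groups. Markers of cortical projection neurons were detected in every sample, at a summed level of 1631 to 1852 CPM in controls and 754 to 934 CPM in mutants (CPM, the TMM-scaled counts of a gene brought to a common library size). Mitochondrial genes took 2.06% to 3.23% of counts in controls and 3.57% to 5.47% in mutants, with the highest share in dcKO_hGFAP-Cre replicate 2. Per the labels, lane 5 held replicates 1 and 2 of both groups, lane 6 held both replicates numbered 3, and lane 7 both numbered 4. Because the tissue was sequenced in bulk, fewer cells of a type and less RNA per cell cannot be told apart.

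The bases upstream of 3 of the genes are shown: Isl1, which had the largest fold change, Zfp503, which had the smallest adjusted p, and Six3, whose groups overlapped and whose locus holds antisense genes. Each line gives the 200 bases before the RefSeq start (GRCm38.p6, the same assembly as mm10) on the strand of the gene, 5′ to 3′, and capitals mark matches to CCAAT or TGACAG on either strand. The Isl1 window lies at chr13:116309689-116309888 on the minus strand, the Zfp503 window at chr14:21989602-21989801 on the minus strand and the Six3 window at chr17:85620634-85620833 on the plus strand, inside the antisense gene Gm28528.
Isl1: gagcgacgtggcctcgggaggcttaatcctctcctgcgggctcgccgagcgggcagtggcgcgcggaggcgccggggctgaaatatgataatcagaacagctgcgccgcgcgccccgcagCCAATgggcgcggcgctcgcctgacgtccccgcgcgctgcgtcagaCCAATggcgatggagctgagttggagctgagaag
Zfp503: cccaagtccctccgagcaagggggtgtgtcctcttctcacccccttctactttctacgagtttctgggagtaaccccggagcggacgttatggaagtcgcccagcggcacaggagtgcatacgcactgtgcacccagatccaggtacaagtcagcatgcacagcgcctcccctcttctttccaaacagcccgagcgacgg
Six3: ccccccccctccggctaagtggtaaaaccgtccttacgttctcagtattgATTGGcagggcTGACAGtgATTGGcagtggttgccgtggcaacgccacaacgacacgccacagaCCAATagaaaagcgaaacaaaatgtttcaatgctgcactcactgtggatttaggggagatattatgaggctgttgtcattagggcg
The Isl1 window had a GC content of 69% and 27 CpG dinucleotides, against medians of 53% and 5 over 32843 windows of the same length. The Zfp503 window had 59.5% GC and 12 CpG, and the Six3 window 51% GC and 9 CpG. In all, 5 motifs were searched on both strands in the 11 windows of the 7 genes. They were TAATTA, the core bound by many homeodomain factors, TGACAG, the core of Meis factors, TGTTTAC for forkhead factors, TGGGAA for Ikaros factors and CCAAT for the general factor NF-Y, and their matches did not overlap in the windows shown. CCAAT was present in 3 of 11 windows (27.3%) against 29.4% of all windows, and TGACAG in 2 of 11 (18.2%) against 12.9%. No match to any of the motifs was found in 7 of the windows, Zfp503 among them. TAATTA occurred in 3.73%, TGTTTAC in 2.51% and TGGGAA in 17.3% of all windows, and in none of the 11.

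Of the 7 transcription factor genes, 6 were upregulated in the dcKO_hGFAP-Cre cortex, 0 were downregulated and Foxp1 did not pass the test (edgeR quasi-likelihood test, Benjamini-Hochberg adjusted p under 0.05). None was lower at an unadjusted p under 0.05, nor called lower by DESeq2 or limma-voom. Of the 16525 genes tested, 37.5% were called, 18.6% higher and 18.9% lower. Of the called genes 49.6% were higher, and 68.6% under scaling by library totals. The log2 fold change was at least 2 in 4 of the 7, Isl1, Six3, Ebf1 and Zfp503, whereas 0.762% of all tested genes were called higher with a change of that size. The median log2 fold change was 2.13 over the 7 genes and 0.02 over all tested genes. Because the 7 genes were chosen with earlier results of these data known, neither these comparisons nor their p-values are independent support. All mutants lay above all controls for 4 of the 7, Isl1, Zfp503, Ikzf1 and Meis2, and for 16.7% of all tested genes, while they lay below all controls for 0 of the 7 and for 17.7% of tested genes. An exact two-sided permutation test over the 70 arrangements of the samples gave p = 0.0286, the smallest it can give, for each of those 4 genes, 0.0571 for Ebf1 and for Six3, and 0.314 for Foxp1, without adjustment for the number of genes.

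**Figure D1:**
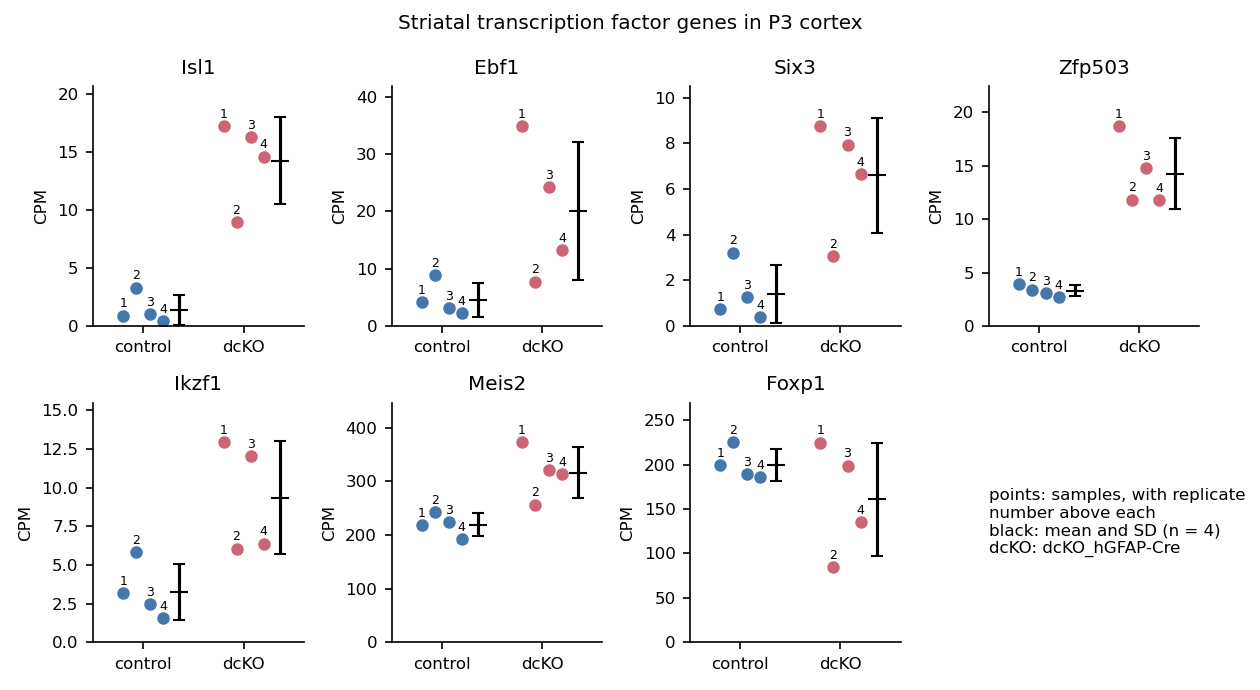
Normalised level (CPM, linear axis from 0) of the 7 genes in each of the 4 control (blue) and 4 dcKO_hGFAP-Cre (red) cortices, with the replicate number above each point and the mean and SD in black. Isl1, Zfp503, Ikzf1 and Meis2 separate the groups, dcKO_hGFAP-Cre replicate 2 falls among the controls for Ebf1 and Six3, and the groups overlap for Foxp1.

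Isl1 (13:116298281-116309689, minus strand) encodes a LIM-homeodomain factor that directs the direct-pathway fate and is also needed by striatal cholinergic neurons. Its level was 0.874, 3.30, 0.996 and 0.382 CPM in control replicates 1 to 4 and 17.3, 8.94, 16.3 and 14.6 CPM in dcKO_hGFAP-Cre replicates 1 to 4. The lowest mutant lay above the highest control, and the counts behind the controls were 11 to 67 reads. Isl1 rose by 3.43 ± 0.55 (SE, n = 4 and 4) on the log2 scale (adjusted p = 0.00217), and the ratio of group means was 10.3. The log2 ratio was 2.65 within lane 5, 4.03 in lane 6 and 5.26 in lane 7, the last 2 from 1 sample a group. Isl1 stayed past the threshold in each of the 8 fits that left out 1 sample.

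The cholinergic list, which describes a second cell type that uses Isl1, had 3 of 4 tested genes higher. Its summed level was 1.43 to 3.15 CPM in controls and 3.81 to 10.9 CPM in mutants. The higher genes were Lhx8, Slc18a3 and Gbx2, the last of which is also listed for thalamus, and Slc5a7 did not pass (adjusted p = 0.176). The groups overlapped for Lhx8, with mutant replicate 2 at 0.424 CPM and the highest control at 0.838 CPM. They also overlapped for Slc18a3, at 0.593 and 0.631 CPM, and it passed in 3 of the 8 fits that left out 1 sample. In mutant replicate 2, which had the lowest sum of the mutants, Gbx2 made up 1.95 of the 3.81 CPM. Its defining enzyme gene Chat failed the filter on low counts, with 0.0329 ± 0.0465 CPM (SD, n = 4) in controls and 0.177 ± 0.128 CPM in mutants. Lhx8, a factor of cholinergic neurons, was upregulated by 2.03 ± 0.54 on the log2 scale (adjusted p = 0.0127). The part of these cells in the Isl1 result was not tested.

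Ebf1 (11:44617317-45008091, plus strand), a helix-loop-helix factor, is required for the differentiation of direct-pathway neurons. Controls had 4.10, 8.92, 3.15 and 2.26 CPM, and mutants 34.9, 7.71, 24.3 and 13.2 CPM. Mutant replicate 2 lay below control replicate 2, so the groups overlapped, while the other 3 mutants exceeded every control. Ebf1 was higher by 2.15 ± 0.60 on the log2 scale (adjusted p = 0.0285). The log2 ratio was 1.71 within lane 5, 2.94 in lane 6 and 2.55 in lane 7. With the lane as a block the adjusted p was 0.0562. It was 0.0717, 0.0874 and 0.0746 without control replicates 1, 3 and 4, and 0.0516 and 0.0696 without dcKO_hGFAP-Cre replicates 1 and 3. Ebf1 is also expressed in mural cells of vessels. Of the 10 mural and endothelial genes 0 were higher and 4 lower. Their summed level was 372 to 427 CPM in controls and 265 to 403 CPM in mutants. The lower genes were the endothelial Pecam1, Flt1 and Kdr and the mural Abcc9, at -0.33 ± 0.11 on the log2 scale. The mural genes Pdgfrb, Rgs5, Kcnj8, Vtn and Higd1b did not pass, with changes from -0.31 (Pdgfrb) to 0.42 (Higd1b). The part of mural cells in the Ebf1 result was not tested.

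Zfp503 (14:21983959-21989601, minus strand), which encodes the zinc finger protein also called Nolz-1, is switched on in differentiating striatal neurons. It had 3.91, 3.40, 3.09 and 2.71 CPM in controls and 18.7, 11.8, 14.8 and 11.8 CPM in mutants. The spread within each group was small beside the difference, and no sample stood between the groups. Zfp503 rose by 2.13 ± 0.18 on the log2 scale (adjusted p = 5.92e-06), the smallest adjusted p among the 7 genes. Its log2 ratio was 2.06, 2.26 and 2.12 in lanes 5, 6 and 7. Fits without 1 sample gave 1.96 to 2.22, all past the threshold.

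Six3 (17:85613608-85629302, plus strand), a homeodomain factor of the rostral forebrain, marks LGE progenitors and young indirect-pathway neurons. The level was 0.736, 3.20, 1.26 and 0.382 CPM in controls and 8.76, 3.05, 7.95 and 6.64 CPM in mutants. Mutant replicate 2 was just below control replicate 2, and the other 3 mutants lay above all controls. Six3 was higher by 2.28 ± 0.59 on the log2 scale (adjusted p = 0.0172). In lanes 5, 6 and 7 the log2 ratio was 1.58, 2.66 and 4.12. The adjusted p was 0.0616 without control replicate 3.

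Six3os1, a long noncoding RNA gene on the opposite strand (17:85600651-85618398), shares 106 exonic bases with Six3, and was chosen after its values were seen. It had 12, 30, 20 and 11 counts in controls and 199, 121, 199 and 187 in mutants, so its groups did not overlap. Its level rose by 3.12 ± 0.34 on the log2 scale (adjusted p = 3.93e-05). The TruSeq v2 kit does not mark strand, so reads in the shared bases cannot be told apart between the genes. Gm28528, which shares 168 exonic bases with Six3, had at most 4 counts in any sample.

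Meis2 (2:115863064-116065839, minus strand), a TALE homeodomain factor of LGE progenitors and striatal neurons, was already abundant in control cortex. Controls had 218, 243, 223 and 193 CPM and mutants 372, 257, 320 and 314 CPM. The lowest mutant lay above the highest control, by a narrow gap between the 2 replicates numbered 2. Meis2 was upregulated by 0.52 ± 0.11 on the log2 scale (adjusted p = 0.00269), the smallest change among the 6 genes called. The log2 ratio in lanes 5, 6 and 7 was 0.45, 0.52 and 0.70. Under scaling by library totals, which moved the median over the tested genes up by 0.121, its change was 0.65.

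Ikzf1 (11:11685003-11772926, plus strand) encodes Ikaros, a zinc finger factor of lymphocytes that is also found in young enkephalin neurons of the striatum. It had 3.18, 5.82, 2.46 and 1.56 CPM in controls and 12.9, 6.06, 12 and 6.37 CPM in mutants. Mutant replicates 2 and 4 were only just above control replicate 2, and replicates 1 and 3 were well above it. Ikzf1 rose by 1.55 ± 0.41 on the log2 scale (adjusted p = 0.0173). The log2 ratio was 1.08 within lane 5, 2.29 in lane 6 and 2.03 in lane 7. The adjusted p was 0.0589 without control replicate 3.

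Since microglia can also express Ikzf1, their markers are given beside it. Of 13 microglial genes 9 were higher and 0 lower, and none was without counts. Their summed level was 147, 144, 124 and 112 CPM in controls and 232, 272, 238 and 216 CPM in mutants. Mutant replicate 2 thus had the highest microglial sum and the lowest Ikzf1 level of the mutants. The part of microglia in the Ikzf1 result was not tested.

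Foxp1 (6:98925338-99522721, minus strand), a forkhead repressor found in striatal projection neurons of both pathways and in cortical projection neurons, had 199, 225, 189 and 185 CPM in controls and 225, 84.5, 199 and 135 CPM in mutants. Mutant replicates 2 and 4 were below every control, and replicates 1 and 3 lay within the control range. Its log2 fold change was -0.31 ± 0.28 (adjusted p = 0.413), and fits without 1 sample gave -0.52 to -0.11. The log2 ratio was -0.46, 0.07 and -0.46 in lanes 5, 6 and 7. Among cortical projection markers, which describe another source of Foxp1, 7 of 8 genes were lower and 0 higher, with Emx1 at -2.13 ± 0.17 and Neurod6 at -2.04 ± 0.13 on the log2 scale. The part of cortical projection neurons in the Foxp1 result was not tested.

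**Figure D2:**
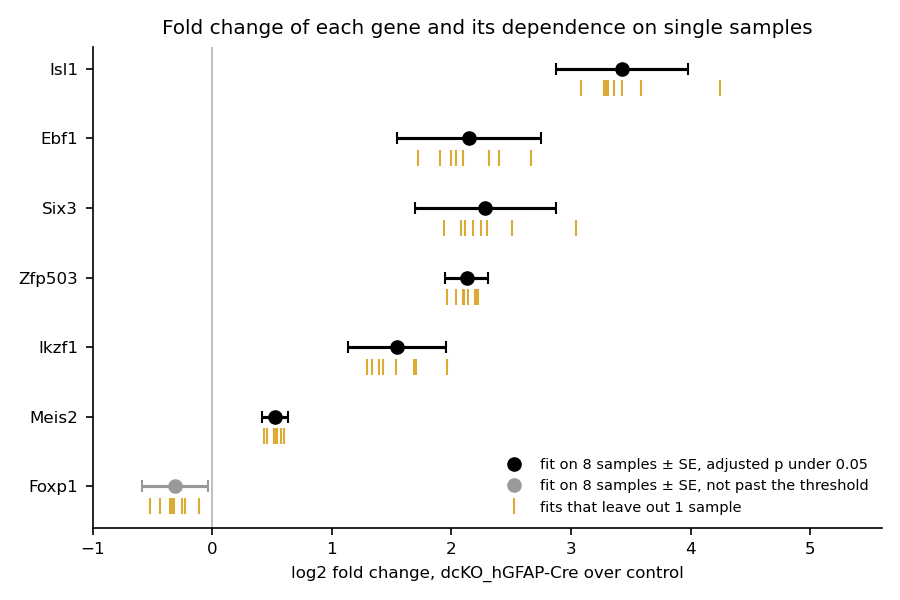
Fitted log2 fold change of the 7 genes, dcKO_hGFAP-Cre over control, with its SE (horizontal bars), and below each the values of the 8 fits that each left out 1 sample (yellow ticks). Isl1 spans 3.08 to 4.25 across those fits, Zfp503 spans 1.96 to 2.22, and Foxp1 stays between -0.52 and -0.11.

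Per kilobase of annotated exon, the 7 genes fell into an abundant pair and 5 scarce genes in control cortex. Meis2 was at 18.2 ± 1.7 (SD, n = 4) and Foxp1 at 14.5 ± 1.3 CPM per kilobase. Zfp503 followed at 0.777 ± 0.12, Ikzf1 at 0.563 ± 0.32, Ebf1 at 0.472 ± 0.30, Isl1 at 0.351 ± 0.33 and Six3 at 0.256 ± 0.23 CPM per kilobase. Each of these 5 overlapped its neighbour in the order within 1 SD, so that part of the order is not resolved. In the mutants Meis2 was at 26.2 ± 3.9 and Foxp1 at 11.7 ± 4.6 CPM per kilobase. There Isl1 reached 3.61 ± 0.94, next to Zfp503 at 3.39 ± 0.78, Ebf1 at 2.05 ± 1.2, Ikzf1 at 1.62 ± 0.63 and Six3 at 1.21 ± 0.46 CPM per kilobase, and neighbours among these 5 again overlapped within 1 SD. These levels use every annotated exon of a gene as its length, whichever isoform was present.

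The samples of each group ranked alike across the genes. Mutant replicate 1 was the highest mutant for 7 of 7 genes and control replicate 4 the lowest control for 7 of 7. Mutant replicate 2 was the lowest mutant and control replicate 2 the highest control for 6 of 7, Zfp503 being the exception in both. Relative to the mean of the other 3 mutants, replicate 2 stood at 32.0% for Ebf1, 39.2% for Six3, 45.4% for Foxp1, 55.7% for Isl1, 58.0% for Ikzf1, 76.5% for Meis2 and 78.3% for Zfp503. Control replicate 2 was 4.40 times the mean of the other controls for Isl1 and 4.04 times for Six3, but 1.05 times for Zfp503. With both libraries numbered 2 left out, a comparison chosen after the data were seen, the log2 fold change was 4.42 for Isl1, 3.27 for Six3, 2.93 for Ebf1, 2.22 for Zfp503, 2.13 for Ikzf1 and 0.66 for Meis2, all past the threshold, and -0.04 for Foxp1.

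Summed over the dopamine, neuropeptide and other marker genes of the striatal neurons, mutant replicate 2 was again the lowest mutant and control replicate 2 the highest control. The summed level of the 4 indirect-pathway genes was 13.1, 26.3, 19.8 and 15.2 CPM in controls and 86.0, 18.1, 109 and 46.7 CPM in mutants, so mutant replicate 2 lay inside the control range. For the 5 direct-pathway genes the sums were 33, 50.3, 36.6 and 37.3 CPM in controls and 91.4, 37.3, 113 and 62.6 CPM in mutants. Whether the amount of striatal tissue in a sample takes part in these differences was not tested. The choroid plexus genes had another order: Ttr, the main product of that tissue, was at 584, 1128, 15.8 and 1.72 CPM in mutant replicates 1 to 4 and at 0.0664 to 9.37 CPM in controls. Without mutant replicates 1 and 2, also chosen after the data were seen, 5 of the 7 genes were called higher, and Ikzf1 was not, at 1.51 (adjusted p = 0.0602).

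**Figure D3:**
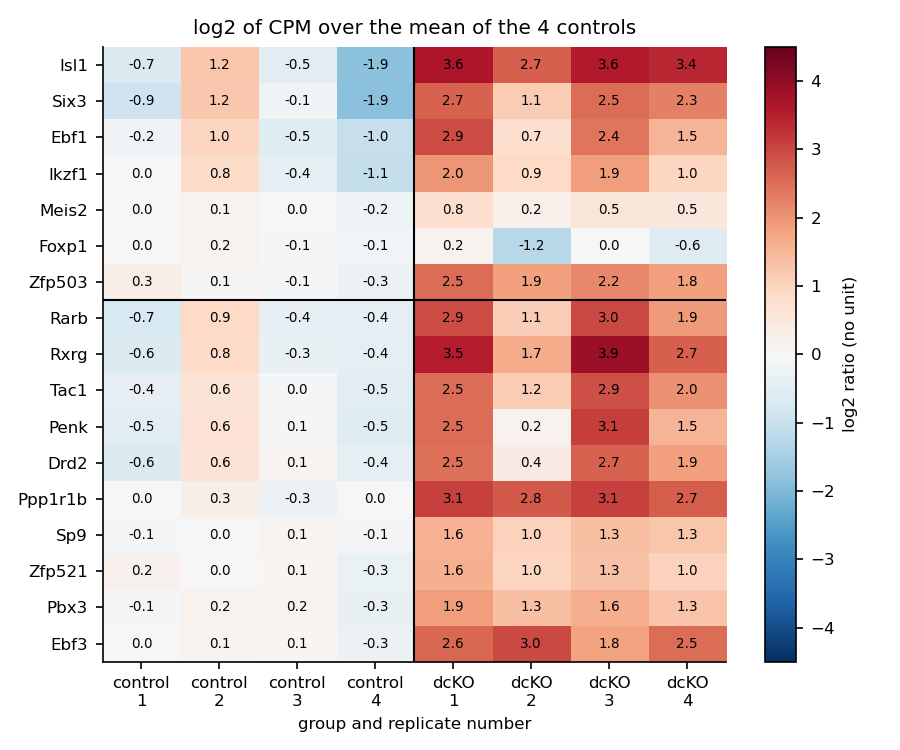
Log2 of the CPM in each sample over the mean of the 4 controls, for the 7 genes (above the line) and 10 further genes of the striatal programme or the gene families (below it), with the value printed in each cell. Among the mutants, replicate 2 has the lowest value in most rows, and it is the highest for Ebf3.

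The genes whose levels were most like each member over the 8 samples were ranked by Pearson r of log2 CPM among 14609 genes with a symbol and a mean of at least 1 CPM, as a description without a test, since all 8 points share the group difference and the library. Isl1 was nearest to Six3os1 (r = 0.992), Ebf1 to Dach1 (r = 0.987), Ikzf1 to Ebf1 (r = 0.981), Zfp503 to Mpg (r = 0.990), Meis2 to Slc27a2 (r = 0.989), Six3 to Entpd3 (r = 0.980) and Foxp1 to C330011M18Rik (r = 0.955). After the mean of each group was subtracted, the nearest gene to Isl1 was Six3 and the nearest to Six3 was Isl1 (r = 0.971). Foxp1 was then nearest to Pde7b (r = 0.996). The prodynorphin gene Pdyn was among the 3 nearest genes to Ebf1 (r = 0.964). Foxp1 differed from the other members in the group contrast but shared part of their spread within groups. After the group means were removed, its r was 0.867 to Meis2, 0.857 to Ebf1, 0.743 to Zfp503, 0.690 to Ikzf1, 0.608 to Six3 and 0.488 to Isl1.

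Relatives of the 7 genes within their families changed in both directions. Of 19 paralogs, 13 were abundant enough to be tested, 5 were upregulated and 2 downregulated, with a median log2 fold change of 0.55, and Six6 had no count in any sample. Ebf3, a helix-loop-helix factor of the same family as Ebf1, rose from 2.95, 3.20, 3.15 and 2.43 CPM in controls to 17.8, 23.3, 10.4 and 16.8 CPM in mutants, by 2.54 ± 0.22 on the log2 scale (adjusted p = 7.24e-06). Unlike Ebf1, Ebf3 was highest in mutant replicate 2. Six5 rose by 1.47 ± 0.14 (adjusted p = 1.35e-05) and Meis1, a partner and relative of Meis2, by 1.40 ± 0.22 (adjusted p = 0.000485). Ikzf3, the lymphocyte factor Aiolos, was called higher from 0 to 0.092 CPM in controls to 0.593 to 0.755 CPM in mutants, a level at which the controls hold at most 2 reads each. Ebf4 rose by 0.55 ± 0.17 (adjusted p = 0.0206), and its adjusted p reached 0.0698 without control replicate 2, 0.0646 and 0.055 without control replicates 3 and 4, and 0.0689 and 0.052 without dcKO_hGFAP-Cre replicates 2 and 4. The genes that fell were Zfp703, the close relative of Zfp503, at -0.96 ± 0.17 (adjusted p = 0.0011), and Foxp4 at -0.31 ± 0.08 (adjusted p = 0.0121). The relatives Zfp503 and Zfp703 thus changed in opposite directions, with 16.3 to 28.1 CPM of Zfp703 in mutants against 33.4 to 42.1 CPM in controls.

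Other transcription factors of the LGE and striatum were measured from a list of 23 genes, all of which were tested and 3 of which are also among the paralogs. Of these 13 were higher, 3 lower and 7 not past the threshold, with a median log2 fold change of 0.62. The retinoic acid receptors of the striatum rose most. Rxrg was at 4.05, 11.2, 4.91 and 4.76 CPM in controls and 72.3, 19.7, 90.0 and 40.3 CPM in mutants, a rise of 3.17 ± 0.58 on the log2 scale (adjusted p = 0.00591). Rarb was at 3.68, 10.9, 4.55 and 4.34 CPM in controls and 44.5, 12.6, 46.0 and 22.2 CPM in mutants, a rise of 2.43 ± 0.54 (adjusted p = 0.0115). As with most members, replicate 2 was the lowest mutant and the highest control for both genes.

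A further group rose by a smaller and more even amount. Pbx3, a homeodomain partner of Meis proteins, rose by 1.56 ± 0.15, Sp9, needed for indirect-pathway neurons, by 1.31 ± 0.12, and Zfp521, linked to direct-pathway neurons, by 1.26 ± 0.15 on the log2 scale. The LGE factors Dlx6, Tshz1, Gsx2, Dlx5 and Dlx1 rose by 1.23 ± 0.17, 1.18 ± 0.13, 1.17 ± 0.25, 0.85 ± 0.11 and 0.58 ± 0.08. The Dlx genes are also expressed in cortical interneurons, and of 8 interneuron genes 5 were higher and 0 lower, with a summed level of 603 to 624 CPM in controls and 876 to 960 CPM in mutants. Their part in the Dlx results was not tested.

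Among the factors that fell was Mef2c, abundant in cortical neurons, at -1.44 ± 0.08 on the log2 scale. Bcl11b (CTIP2), which both striatal neurons and deep-layer cortical neurons use, was at 201, 205, 195 and 170 CPM in controls and 270, 129, 232 and 213 CPM in mutants. Like Foxp1 it overlapped between the groups and was lowest in mutant replicate 2, with a log2 fold change of 0.13 ± 0.19 (adjusted p = 0.621). Without that library it passed, at an adjusted p of 0.0442.

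Among genes that mature striatal neurons use, both pathways had genes that rose and genes that did not pass the test. Of the 5 direct-pathway genes 3 were higher. Tac1 (substance P) rose by 2.30 ± 0.41 (adjusted p = 0.00371), Pdyn by 1.46 ± 0.23 (adjusted p = 0.00065) and Slc35d3 by 2.98 ± 0.85 (adjusted p = 0.0284) on the log2 scale. The groups overlapped for Slc35d3, with mutant replicate 2 at 0.805 CPM and control replicate 2 at 1.53 CPM. The dopamine receptor gene Drd1 was at 18.0, 23.8, 16.7 and 19.4 CPM in controls and 20.2, 7.58, 28.7 and 12.3 CPM in mutants, with overlapping groups and a log2 fold change of -0.17 ± 0.37 (adjusted p = 0.742). Chrm4 was at -0.66 ± 0.26 (adjusted p = 0.061), and its adjusted p was 0.0048 without control replicate 1 and 0.0256 without dcKO_hGFAP-Cre replicate 3.

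Of the 4 indirect-pathway genes tested 2 were higher. Drd2 rose by 2.08 ± 0.48 (adjusted p = 0.00984) and Penk (enkephalin) by 2.21 ± 0.65 (adjusted p = 0.0351). For both genes mutant replicate 2 lay below control replicate 2, so the groups overlapped. The levels were 2.46 against 2.91 CPM for Drd2 and 6.69 against 9.32 CPM for Penk. Adora2a was at 1.54 ± 0.51 (adjusted p = 0.0514) and Gpr6 at 1.13 ± 0.43 (adjusted p = 0.0651). Adora2a passed without dcKO_hGFAP-Cre replicate 2 (adjusted p = 0.000878), as did Gpr6 (adjusted p = 0.015), which also passed without replicate 4 (adjusted p = 0.0286). Penk and Slc35d3 were not past the threshold without control replicate 1, 3 or 4 or without dcKO_hGFAP-Cre replicate 1 or 3, with adjusted p up to 0.0968 and 0.0875.

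Of 11 genes shared by both neuron types 5 were higher and 0 lower, with a median log2 fold change of 0.52. Ppp1r1b (DARPP-32), the phosphatase inhibitor of dopamine signalling, was at 39.9, 49.1, 34.2 and 40.0 CPM in controls and 343, 276, 342 and 271 CPM in mutants. It rose by 2.92 ± 0.13 on the log2 scale (adjusted p = 4.54e-08), with little spread within groups. Scn4b, a sodium channel subunit, rose by 1.57 ± 0.35 (adjusted p = 0.00421).

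**Figure D4:**
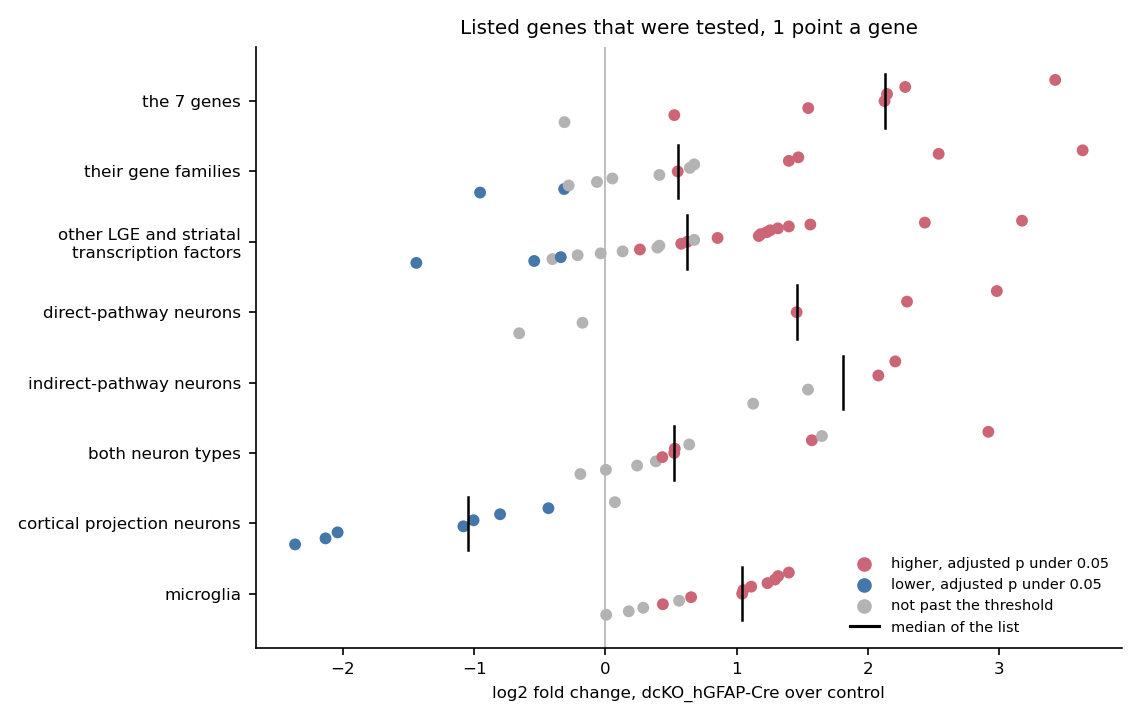
Log2 fold change, dcKO_hGFAP-Cre over control, of every tested gene in 8 of the lists, with 1 point a gene, red for higher and blue for lower at an adjusted p under 0.05, grey for the rest, and a black line at the median of the list. The median is 2.13 for the 7 genes, 0.55 for their families, 0.62 for the other striatal transcription factors and -1.04 for cortical projection neurons.

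Markers of neighbouring regions also differed between the groups. Of the hypothalamic genes 4 of 8 were tested, 3 were higher and 0 lower, with a summed level of 2.60 to 3.15 CPM in controls and 7.16 to 9.49 CPM in mutants. Of the 6 thalamic genes 4 were higher and 1 lower, at 45.2 to 50.2 CPM in controls and 55.5 to 66.4 CPM in mutants. Shox2, a homeodomain gene of thalamic neurons, had 0 to 0.296 CPM in controls and 12.7 to 17.5 CPM in mutants, and all mutants lay far above all controls. Lhx9, a LIM-homeodomain gene of the thalamus, rose from 0.972 to 2.76 CPM in controls to 10.1 to 17.1 CPM in mutants, by 2.70 ± 0.28 (SE) on the log2 scale (adjusted p = 4.02e-05). Gbx2, listed for both thalamus and striatal cholinergic neurons, had 0 to 0.0493 CPM in controls and 1.09 to 1.95 CPM in mutants. Of the 4 choroid plexus genes 1 was higher. The part of neighbouring tissue in the results on the 7 genes was not tested.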

How the data were processed

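RNA was isolated with Trizol from the P3 cortex (dTel) of 4 control and 4 dcKO_hGFAP-Cre mice, and libraries were made with the TruSeq RNA v2 kit. Alignment was to mm10 and counting by featureCounts, and the values the authors deposited are raw counts per gene. The aligner, annotation and strand setting are not given in the sources used here. Of 48709 genes, 48349 were matched to GENCODE M21. Counts were analysed with edgeR (version 4.0.16, R version 4.3.3): TMM scaling, filterByExpr (minimum count 10, leaving 16525 genes), a robust quasi-likelihood test of group, and Benjamini-Hochberg adjustment at 0.05. Total counts of 21126713 to 32110285 place 3 counts at 0.0934 to 0.142 CPM. Alternatives were DESeq2 (version 1.42.0), limma-voom (limma version 3.58.1), other scalings and filters, blocks for lane or replicate number, and each sample left out. The script was tested on simulated data. P-values measure the spread between samples, which no source states to be separate litters.

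The 7 genes and all other lists were chosen with earlier results of these data known. The lists covered gene families, LGE and striatal transcription factors, direct-pathway, indirect-pathway, shared striatal and cholinergic neurons, interneurons, cortical projection neurons, microglia, vessels, hypothalamus, thalamus and choroid plexus. Of 129 listed symbols 128 were found. From each list the genes with the largest changes among those called were named, and all genes of lists of 5 or fewer, apart from choroid plexus. Genes were also named for the highest Pearson r with each of the 7 (log2 CPM, prior count 2). No pair of replicates agreed within sampling noise. A few listed genes are left out of the text.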

Additional observations from a re-analysis of the deposited data

Results flagged for a closer look

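Of the 7 striatal transcription factor genes, none had a sample set apart from the other 3 of its group by more than Dixon's 95% criterion, which compares that gap with the range of the group. Among the other genes named, 6 samples were. Chance alone marks about 1 group in 20, and 104 groups were examined. Control replicate 2 stood highest for Rarb (10.9 CPM, next control 4.55), Rxrg (11.2 CPM, next 4.91), Slc35d3 (1.53 CPM, next 0.398) and Shox2 (0.296 CPM, next 0.0460), the same library that was highest among controls for 6 of the 7 genes. Meis1 was lowest in control replicate 4 (3.06 CPM, next 3.80). Zfp703 was highest in dcKO_hGFAP-Cre replicate 3 (28.1 CPM, next 17.2), still below every control.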

How the results depend on the processing

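Isl1, Zfp503 and Meis2 kept their direction and stayed past the threshold under all 8 other settings and in all 8 fits that left out 1 sample, with log2 fold changes of 3.35 to 3.81, 2.11 to 2.25 and 0.51 to 0.65 under the settings. Without a filter on low counts 3 of the 7 genes were called higher: Ebf1 was at 2.15 (adjusted p = 0.0702), Ikzf1 at 1.54 (adjusted p = 0.0778) and Six3 at 2.29 (adjusted p = 0.0643). Without control replicate 3 the count was also 3, and 3 to 6 over all fits that left out 1 sample. Across those fits Ebf1 ranged from 1.72 to 2.66, Ikzf1 from 1.30 to 1.97 and Six3 from 1.94 to 3.04. With the lane as a block Ebf1 was at 2.21 (adjusted p = 0.0562). Same-numbered samples did not deviate together (r = 0.171, -0.068, 0.213 and -0.024), so the numbers were not taken to pair the samples. With the replicate block 4 of the 7 were called, Ebf1 at 2.13 (adjusted p = 0.123) and Six3 at 2.44 (adjusted p = 0.0979) not among them.

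Over all genes, 3074 were higher and 3128 lower, 4584 and 2102 with library totals, and 2932 and 2982 with the replicate block. Leaving out 1 sample gave 2199 to 3308 higher and 2375 to 3273 lower. Without both libraries numbered 2 there were 1816 higher, and without dcKO_hGFAP-Cre replicates 1 and 2 1388 higher and 1581 lower (fewer samples in both). Ikzf1 was then at 1.51. The sign of Drd1 turned without dcKO_hGFAP-Cre replicate 2 (range over the fits without 1 sample -0.543 to 0.0573), without both libraries numbered 2 (0.175) and without dcKO_hGFAP-Cre replicates 1 and 2 (0.0693), and that of Bcl11b without dcKO_hGFAP-Cre replicate 1 (range -0.0153 to 0.298). With the replicate block Rarb (adjusted p = 0.102), Rxrg (adjusted p = 0.0723) and Drd2 (adjusted p = 0.0677) were not past the threshold, and Foxp4 was not with library totals (adjusted p = 0.0778). The causes were not tested. Isl1 and Six3 rest on few reads in controls, which limits the precision of their fold changes.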
